A study of Drosophila melanogaster with 12 samples.

Results

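The third week of life under a lengthened day was followed by comparing whole flies after 3 weeks of chronic circadian misalignment (CCM) with whole flies after 2 weeks of it. These were the 6 CCM samples of the 12 in the series, 3 at week 3 and 3 at week 2, chosen by their labels alone, and all 14413 counted features were used. In both groups male and female iso31 flies, a laboratory strain of Drosophila melanogaster with no added transgene, had been kept on sucrose and agar food under a 28 h cycle of equal light and dark (14 h each), and each sample was a pool of 10 males and 10 females whose RNA was extracted between ZT0 and ZT3, the first hours after lights on. The 6 control samples, used only where the CCM flies were set against them, came from flies of the same strain, food and pool size under a 24 h cycle (12 h light, 12 h dark), 3 samples at week 3 and 3 at week 2. The sources used here do not say whether the 3 samples of a group came from separate cohorts, so that p-values measure the spread between these pools.

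An adult fly is built largely of cells that no longer divide, and most of its ongoing cell division takes place in the ovary, the testis and the gut. The ovary loads eggs with yolk made by the fat body and by follicle cells, and its nurse cells make the RNAs and the piRNA machinery, which silences transposons, that are passed to the oocyte. Aging flies are known to lay fewer eggs and to express more heat shock proteins, antimicrobial peptides and detoxification enzymes. Among the CCM flies, age, time on the sucrose and agar food and time under the lengthened day advanced together. Control flies had the same food, so age and time on it advanced together in them as well. The separate parts of age and food were not tested. In RNA of the whole body, fewer cells of a type and less RNA per cell cannot be told apart.

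Between 20353284 and 23687266 reads were counted per CCM library, so that 3 counts corresponded to 0.147 CPM (the read count scaled to the size of the library) or less. For the CPM of genes and lists below, the library size was adjusted by edgeR's TMM normalization. The CPM of all features therefore do not add up to the same total in each library. The libraries of the 2 weeks separated along the first principal component, which held 74.7% of the variance, with scores of 33.4 to 50.2 at week 3 and -52.2 to -19.4 at week 2. Week 2 replicate A lay nearest to the week 3 libraries, and week 3 replicate C stood apart along the second component, with a score of 29.2 against -18.6 and -18.2 for its 2 fellow libraries. Markers of ovary, testis, eye, brain, muscle, gut, fat body and blood cells were all detected in these whole flies.

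With edgeR's quasi-likelihood test and an adjusted p under 0.1, 6919 of 12348 features tested (56.0%) differed between the weeks, 3259 higher at week 3 (26.4%) and 3660 lower (29.6%). DESeq2 called 54.1% of 13136 features. In 7629 features (61.8%) the 3 week 3 values lay wholly above (29.5%) or wholly below (32.3%) the 3 week 2 values. In this comparison the adjusted threshold corresponded to an unadjusted p of 0.056, so where a list has 0 calls in one direction by this fit, it also has 0 at an unadjusted p under 0.05. The falls were larger than the rises. Among the features that fell, the median size of the log2 fold change (log2FC, week 3 over week 2) was 1.01, and 1838 of them changed by more than 1 on the log2 scale, while the median among those that rose was 0.45 and 224 exceeded 1. With any single library left out, between 5413 and 6788 features passed.

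The direction of change moved with the length of the gene. Of the 2876 longest genes, with 3229 or more exonic bases, 6.22% rose and 69.1% fell, while of the 2879 shortest, with 1138 or fewer, 40.5% rose and 5.21% fell. The same length trend separated the libraries: the correlation across genes of a library's deviation from the mean with log2 length was -0.56 to -0.31 at week 3 and 0.24 to 0.54 at week 2, lowest at week 2 in replicate A. A trend with length can come from the RNA or the library as well as from the animal, and its part in the changes was not tested, so each gene group below was also counted in a fit with an offset for length in each library. That fit removed the trend (r of log2FC with log2 length across 11506 genes, -0.511 without offsets and -0.013 with them) and called 49.9% of features, 26.1% higher and 23.9% lower. It kept the direction and the call of 4804 of the 6919 features and turned the sign of 579.

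**Figure D1:**
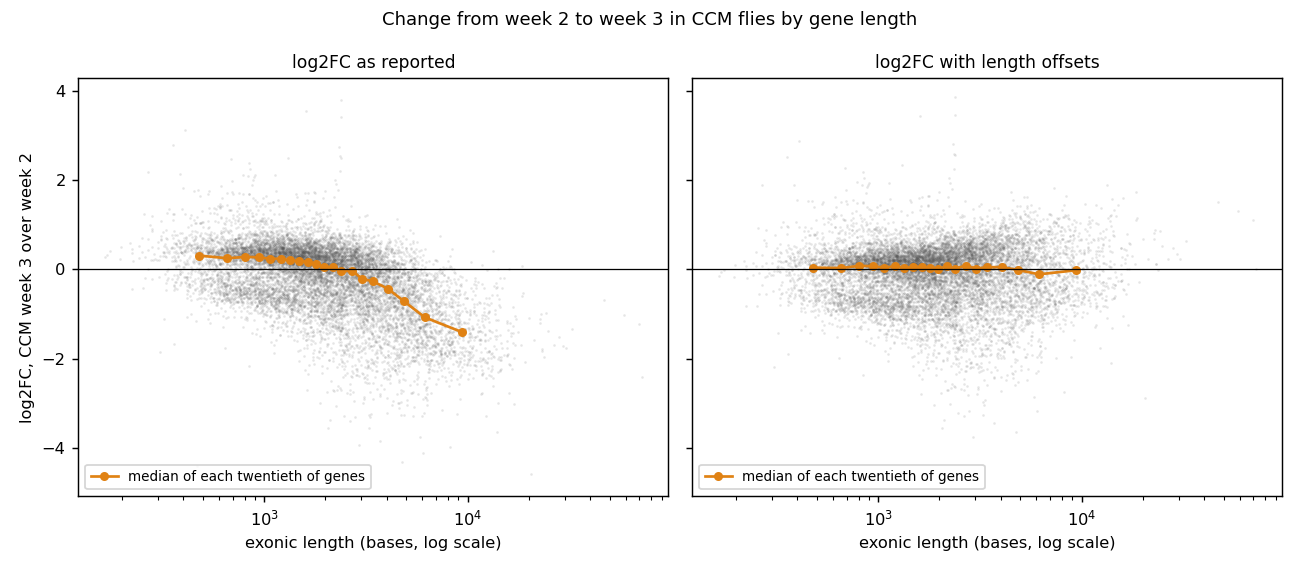
Log2FC of week 3 over week 2 in CCM flies (vertical axis) against the exonic length of each gene (horizontal axis, bases on a log scale), as fitted (left) and with length offsets (right). Each grey point is a gene and the orange line joins the medians of 20 length bins: without offsets it lies above 0 for short genes and below 0 for long ones, and with offsets it stays close to 0.

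Yolk, oocyte and piRNA genes of the ovary fell, and so did genes of cell division, which also takes place in the testis and gut. All 3 yolk protein genes (Yp1, Yp2 and Yp3), whose products are taken up by growing oocytes, were lower at week 3, as were 15 of 17 tested genes of oocyte and nurse cells, 13 of 14 of the piRNA pathway and 20 of 26 of DNA replication and the cell cycle. The median log2FC of these lists was -1.59, -1.30, -1.63 and -1.07, beside -0.03 over all features tested. These counts were 3, 14, 14 and 21 with length offsets.

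Yp1 (chrX:10053811-10055498, dm6) had 1160, 1310 and 2760 CPM at week 3, against 4600, 4690 and 6490 CPM at week 2, a log2FC of -1.59 ± 0.42 (SE, n = 3 each). The groups did not overlap, and week 3 replicate C kept the highest level of its group in Yp2 and Yp3 as well, with log2FC of -1.21 and -1.98. The receptor through which oocytes take up yolk, yl (yolkless), fell too, with 40.0, 52.4 and 50.2 CPM at week 3 against 158, 227 and 173 CPM at week 2 (log2FC -1.97 ± 0.20). Of the eggshell genes, 16 of 22 were too low to be tested, and the 6 others had a median log2FC of 0.10, with 4 above 0. Of these 6, 1 fell, Pxt, a peroxidase needed for follicle maturation (log2FC -1.96), and 0 rose by edgeR and 1 by DESeq2.

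Among the genes of the oocyte, osk (oskar, chr3R:8935126-8938395), which sets up the germ plasm at the posterior pole, was found at 27.3, 29.5 and 35.5 CPM at week 3 and at 120, 182 and 142 CPM at week 2. Its log2FC of -2.27 ± 0.21 was close to that of orb (-2.28 ± 0.22), an RNA-binding protein that activates the translation of such maternal RNAs. exu, which takes part in the localization of bicoid RNA, fell by 1.54 on the log2 scale. dhd, a thioredoxin of the egg, had 47.5, 107 and 101 CPM at week 3 against 243, 304 and 175 CPM at week 2. The gene of smallest p among all that fell, fs(1)N, which is needed for the integrity of the eggshell, had 2.76 to 3.46 CPM at week 3 and 16.6 to 24.8 CPM at week 2 (log2FC -2.76 ± 0.18, adjusted p = 0.001).

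piwi (chr2L:10982205-10987420), the nuclear Argonaute protein that piRNAs guide to transposons, had 7.37, 6.19 and 7.99 CPM at week 3, against 25.6, 47.8 and 35.6 CPM at week 2 (log2FC -2.34 ± 0.28). The largest change of this list was that of del (deadlock), part of the complex that marks piRNA clusters for transcription, at 0.904 to 1.23 CPM in week 3 libraries and 5.86 to 13.5 CPM in week 2 libraries (log2FC -3.26 ± 0.35). The helicases armi and spn-E, which act in piRNA biogenesis, fell by 2.54 and 2.04. cuff, at a log2FC of -0.66, was the only tested member of the list that did not pass.

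The replication helicase subunits Mcm2 and Mcm7 fell with log2FC of -1.54 and -1.91, the cyclins CycA and CycB, which drive entry into mitosis, with -1.86 and -1.41, and the mitotic kinase polo with -1.95. CycB was the most spread of these, with 40.3, 150 and 79.0 CPM at week 3 and 241, 314 and 161 CPM at week 2, and its call was lost without week 2 replicate B. PolA1, the catalytic subunit of DNA polymerase alpha, had 0.774 to 1.37 CPM at week 3 against 4.94 to 14.0 CPM at week 2 (log2FC -3.11 ± 0.44), and asp, a spindle pole protein, fell by 3.04. Marf1, a regulator of meiosis in the oocyte, had 2.19 to 2.78 CPM at week 3 against 17.2 to 36.3 CPM at week 2 (log2FC -3.29 ± 0.35).

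**Figure D2:**
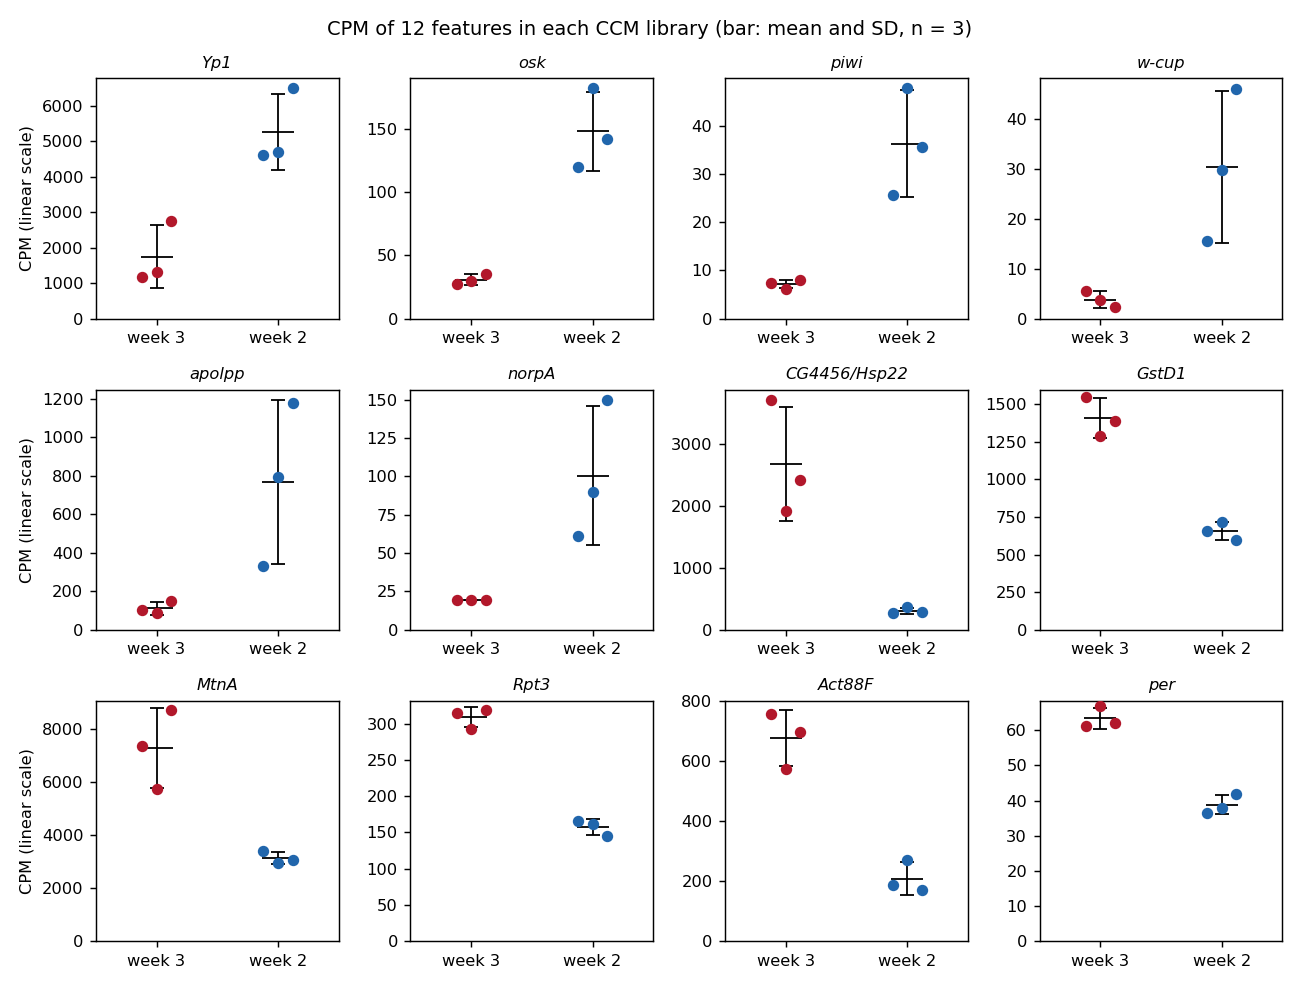
CPM of 12 features (vertical axes, linear from 0) in the 3 week 3 (red, left) and the 3 week 2 (blue, right) libraries of CCM flies, with the mean and SD as bars. In each panel the 3 week 3 values lie wholly below or wholly above the 3 week 2 values, as in osk with 27.3 to 35.5 CPM at week 3 and 120 to 182 CPM at week 2. The 12 were picked for display, and in 61.8% of all features tested the groups are likewise apart.

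The male germline fell less and less evenly, and the male accessory gland did not share its direction. Of 49 tested testis features, 29 fell and 1 rose, with a median of -0.71, and the count that fell was 30 with length offsets. It rested in part on week 2 replicate C, which held the highest testis signal: the summed CPM of the list was 1240, 1140 and 601 at week 3 and 1450, 1540 and 2250 at week 2, and without that library 8 members fell.

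w-cup, one of the cup genes transcribed after meiosis in elongating spermatids, had 5.52, 3.69 and 2.26 CPM at week 3 against 15.5, 29.8 and 45.9 CPM at week 2 (log2FC -2.98 ± 0.55). salto, which acts in the shaping of spermatids, had 6.42, 6.74 and 4.26 CPM at week 3 against 26.8, 45.6 and 67.7 CPM at week 2, a fold of 0.125. The abundant sperm leucylaminopeptidases S-Lap1 and loopin-1 fell by 1.01 and 1.04, and both calls were lost without week 2 replicate C. Week 3 replicate C was the lowest and week 2 replicate C the highest library in each of these 4 genes.

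Of 53 tested seminal fluid genes of the accessory gland, which makes the proteins transferred with sperm, 13 rose and 1 fell, with a median of 0.24. The 13 (24.5%) were close to the share of all features that rose, they were 6 with length offsets, and they ranged from 8 without week 2 replicate C to 28 without week 3 replicate B. Sfp93F had 59.6, 46.9 and 54.5 CPM at week 3 against 34.3, 24.5 and 28.1 CPM at week 2 (log2FC 0.89 ± 0.17), and lectin-46Ca and CG17575, proteins of the network that keeps sex peptide bound to sperm, rose by 0.62 and 0.67. The exception was Acp36DE, a large protein needed for sperm storage in the mated female, with 17.6, 8.97 and 15.4 CPM at week 3 and 40.5, 93.4 and 85.7 CPM at week 2 (log2FC -2.39 ± 0.48).

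Chromatin regulators, most of them with long transcripts, fell as well, by less once length was taken into account. All 18 features of 17 chromatin regulators were lower at week 3 (median -1.65). With length offsets 16 fell and 1 rose (median -0.56). The list holds a merged feature of genes that are also counted on their own, so these features are not independent of each other. The remodelers Mi-2, dom, brm and Iswi fell with log2FC of -1.37, -1.90, -1.12 and -1.70 and kept the call with offsets. osa, a subunit of the Brahma complex with 10723 exonic bases, had 77.2, 94.9 and 89.6 CPM at week 3 against 139, 163 and 169 CPM at week 2 (log2FC -0.85 ± 0.12), and was higher at week 3 with offsets (0.50).

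Neuronal genes were lower without exception among those called, 19 of 23 (median -1.36). With length offsets 8 fell and 7 rose (median -0.33), so the balance of directions in the list differed between the fits. Syt1, the calcium sensor of synaptic vesicle release, had 12.0, 12.4 and 11.9 CPM at week 3 and 28.9, 56.2 and 70.2 CPM at week 2 (log2FC -2.09 ± 0.38, -0.97 with offsets). onecut, a neuronal transcription factor, and CadN, an adhesion protein of axons, fell by 1.83 and 2.27, or 0.81 and 0.64 with offsets. shi (dynamin), which retrieves synaptic vesicles, fell by 1.02 and did not pass with offsets. In all 3 of Syt1, onecut and CadN, week 2 replicate A was the lowest library of its group.

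In the eye, 16 of 31 photoreceptor genes fell and 2 rose (median -0.65), with 10 falling when week 2 replicate C was left out. With length offsets 7 fell and 6 rose (median -0.26). norpA (chrX:4322626-4365408), the phospholipase C of the light response, had 19.5, 19.7 and 19.5 CPM at week 3 against 61.4, 89.9 and 150 CPM at week 2, a log2FC of -2.36 ± 0.37 that was -1.13 with offsets. The other long genes of phototransduction named by rank, eys, Galphaq and rdgA, fell by 1.46, 1.36 and 1.78 and did not pass with offsets. The most abundant members did not pass in either fit: ninaE, the opsin of the outer photoreceptors, had 1330, 2220 and 886 CPM at week 3 and 2390, 1670 and 2980 CPM at week 2, with overlapping groups (log2FC -0.66 ± 0.45, adjusted p = 0.14), and Arr2, the major arrestin, had a log2FC of -0.51 (adjusted p = 0.18).

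Of 8 glial genes 3 rose (37.5%) and 1 fell (12.5%), beside 26.4% and 29.6% of all features. The 1 that fell was moody, a receptor of the blood-brain barrier (log2FC -0.24), and with a library left out 0 to 2 fell. repo, the transcription factor that defines most glia, had 37.0, 38.5 and 39.2 CPM at week 3 against 25.8, 25.2 and 29.3 CPM at week 2 (log2FC 0.51 ± 0.07), and Gli, of the blood-brain barrier, and wrapper, of midline glia, rose by 0.62 and 0.54. All 3 also rose with length offsets.

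Transcripts listed for the fat body, the insect counterpart of liver and adipose tissue, were lower at week 3 in these whole flies. All 9 tested fat body genes fell (median -1.62), and 6 did with length offsets (median -0.55). apolpp (chr4:1060969-1077273), which encodes the apolipoproteins of lipophorin, the main lipid carrier of the blood, had 101, 85.2 and 151 CPM at week 3 against 333, 791 and 1180 CPM at week 2, a log2FC of -2.77 ± 0.59 that was -1.24 with offsets. The 3 week 2 libraries differed widely, with replicate A at 333 CPM, closest to the week 3 values. FASN1, the fatty acid synthase of the fat body, had 472, 374 and 572 CPM at week 3 and 1100, 1430 and 1840 CPM at week 2 (log2FC -1.62 ± 0.28), and the lipid droplet protein Lsd-2 fell by 1.03. ACC, the carboxylase that supplies fatty acid synthesis, fell by 1.28 but had a log2FC of -0.02 with offsets. Over the separate list of 12 genes of fatty acid synthesis, 2 rose (16.7%) and 3 fell (25.0%), beside 26.4% and 29.6% of all features. With offsets 6 rose and 1 fell.

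The blood cell and basement membrane genes of largest change were, like apolpp, lowest at week 2 in replicate A. Hml (hemolectin), a clotting protein of hemocytes, had 30.0, 20.6 and 44.4 CPM at week 3 and 69.6, 194 and 219 CPM at week 2 (log2FC -2.34 ± 0.61), or -0.83 with offsets (adjusted p = 0.061 by edgeR). eater, a phagocytic receptor of hemocytes, fell by 2.21. Of 9 hemocyte genes, 6 fell and 1 rose (median -0.58), and with offsets 4 fell and 2 rose (median -0.19). The laminin subunits LanA, LanB1 and LanB2, which assemble into a single trimer of the basement membrane, fell together with log2FC of -2.80, -1.92 and -1.73, and each kept the call with offsets (-1.29, -0.94 and -0.81). SPARC, a small collagen-binding glycoprotein, rose by 0.52 in the same pools. Of 11 basement membrane genes 2 rose (18.2%) and 4 fell (36.4%), beside 26.4% and 29.6% of all features. Without week 2 replicate A 7 fell, and with offsets 6 rose and 4 fell.

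**Figure D3:**
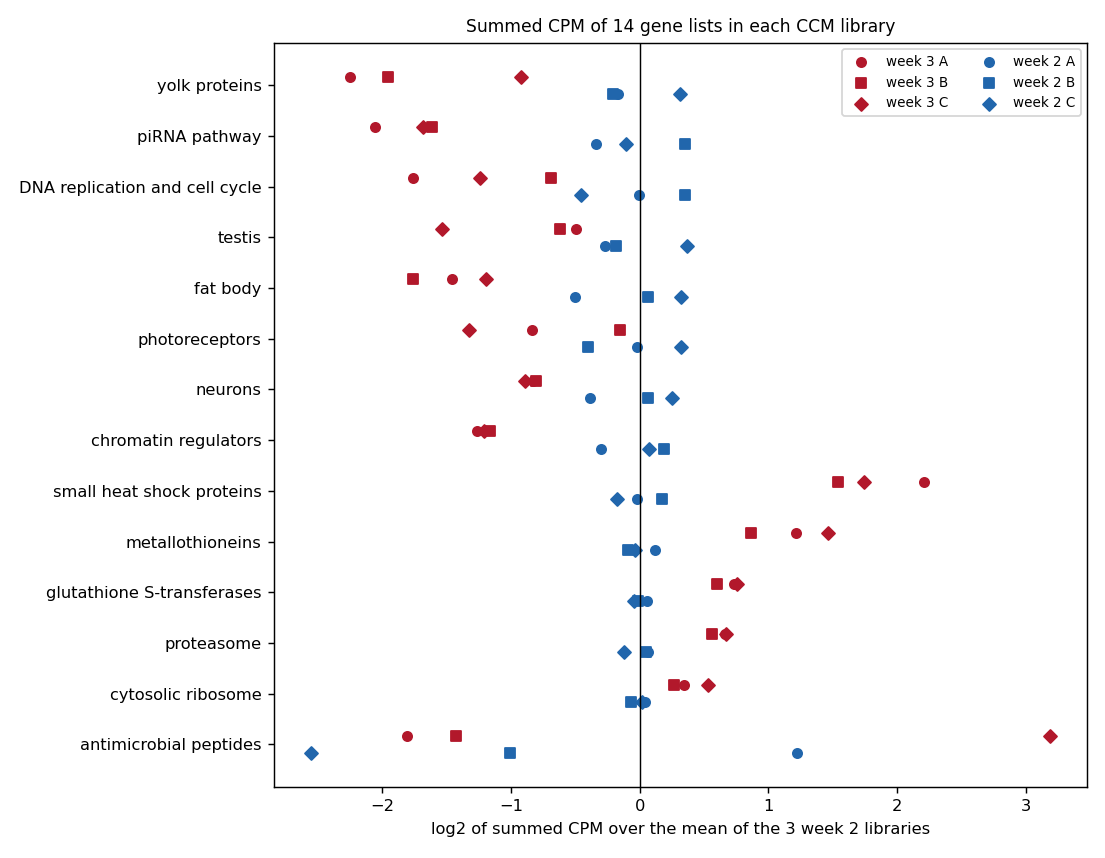
Summed CPM of 14 gene lists in each CCM library, as the log2 ratio to the mean of the 3 week 2 libraries (horizontal axis), with week 3 in red above week 2 in blue and a marker shape for each replicate letter. Week 3 and week 2 are apart for lists such as the piRNA pathway (47.3 to 64.5 CPM at week 3, 156 to 252 CPM at week 2) and the proteasome (6590 to 7090 and 4090 to 4660 CPM), and overlap for photoreceptors and antimicrobial peptides.

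Chaperones of the heat shock response showed the largest rises of the whole comparison. Reads of Hsp22, a small heat shock protein of mitochondria, were counted in a merged feature with CG4456, which had 3700, 1920 and 2410 CPM at week 3 against 264, 362 and 289 CPM at week 2, a log2FC of 3.13 ± 0.31 and a fold of 8.77. Of 12 tested small heat shock protein features 6 rose and 0 fell by edgeR, and 1 was lower by DESeq2, 2 with length offsets and 2 without week 3 replicate B. CG14207, l(2)efl and Hsp23, which hold unfolded proteins in a soluble state, rose by 1.14, 0.96 and 0.81. Hsp26 and Hsp27, at log2FC of -0.45 and -0.72, did not pass.

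Of 27 tested features of the Hsp70 and Hsp90 list, 19 rose and 5 fell, but 14 of the 19 were the near-identical stress-inducible Hsp70A and Hsp70B copies, 8 of them merged features, which share reads and are not independent of each other. These 14 rose with log2FC of 1.82 to 3.80. The merged feature Hsp70Aa/Hsp70Ab had 144, 337 and 50.6 CPM at week 3 and 15.1, 17.1 and 10.5 CPM at week 2 (log2FC 3.64 ± 0.81), so the week 3 libraries themselves differed several-fold without overlapping those of week 2. The mitochondrial chaperones Hsp60A and Hsc70-5 rose by 0.57 and 0.74. The 5 that fell included Hsp83, the fly Hsp90, with 1200, 970 and 966 CPM at week 3 against 1460, 1700 and 1220 CPM at week 2 (log2FC -0.48 ± 0.17), a call that was lost without week 3 replicate B and with length offsets.

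In the endoplasmic reticulum, Xbp1, the transcription factor of the unfolded protein response, had 1390, 1420 and 1400 CPM at week 3 and 898, 834 and 832 CPM at week 2 (log2FC 0.72 ± 0.04), and Der-1, which acts in the removal of misfolded proteins, rose by 0.65. Ire1, the kinase and nuclease that splices Xbp1 RNA, fell, with 25.5 to 27.5 CPM at week 3 and 45.0 to 58.2 CPM at week 2 (log2FC -0.51 with offsets). Of the 16 genes of this list 7 rose (43.8%) and 4 fell (25.0%), beside 26.4% and 29.6% of all features. With offsets 7 rose and 1 fell.

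Of the detoxification families, the glutathione S-transferases rose most broadly. Of 33 tested glutathione S-transferases, which couple glutathione to electrophiles and lipid peroxidation products, 28 rose and 0 fell (median 0.68), with 21 rising and 0 falling under length offsets and 31 rising and 0 falling by DESeq2. All 9 tested members of the delta class rose (median 1.02), as did 12 of 14 of the epsilon class (median 0.62). GstD1 (chr3R:12367817-12369268) had 1550, 1290 and 1390 CPM at week 3 and 655, 715 and 596 CPM at week 2 (log2FC 1.11 ± 0.11), and GstD5, in the same cluster, had 23.3, 19.3 and 19.0 CPM at week 3 against 4.71, 3.61 and 3.43 CPM at week 2 (log2FC 2.39 ± 0.16). GstE3 showed almost no spread within a group, with 52.0, 52.5 and 55.1 CPM at week 3 and 30.9, 30.5 and 30.5 CPM at week 2.

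Cytochrome P450 genes were mixed, 29 higher and 8 lower of 79 (median 0.19). Of 29 UDP-glycosyltransferases, which attach sugars to foreign compounds, 4 were higher (13.8%) and 3 lower (median 0.16). Cyp6d2 had 7.33 to 8.88 CPM at week 3 and 2.35 to 3.09 CPM at week 2 (log2FC 1.51 ± 0.13), and Cyp4g15, of the nervous system, rose by 0.70. Among antioxidant genes 13 of 18 rose and 1 fell (median 0.38), while 8 rose with length offsets and 8 without week 2 replicate B. Cat (catalase), which removes hydrogen peroxide, had 1580, 1560 and 1570 CPM at week 3 against 1110, 882 and 876 CPM at week 2 (log2FC 0.72 ± 0.11), and Trxr1 (thioredoxin reductase) rose by 0.73. The 1 that fell was cnc, which encodes the fly counterpart of Nrf2, the activator of many of these enzymes. cnc had 145, 130 and 153 CPM at week 3 and 235, 347 and 370 CPM at week 2 (log2FC -1.16 ± 0.22), and with its 9178 exonic bases had a log2FC of 0.12 with offsets.

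Of 6 metallothioneins, small cysteine-rich proteins that bind copper, zinc and cadmium, 5 rose (median 0.88), and 3 did with length offsets. MtnA had 7380, 5740 and 8740 CPM at week 3 against 3400, 2960 and 3070 CPM at week 2 (log2FC 1.21 ± 0.19), and MtnE had 138, 134 and 193 CPM at week 3 against 68.4, 53.9 and 56.5 CPM at week 2 (log2FC 1.38 ± 0.20).

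The proteasome, which degrades ubiquitin-tagged proteins, rose broadly. Of 48 tested features 29 were higher and 1 lower, Rpn5 (log2FC -0.67), with a median of 0.51. With length offsets 30 were higher and 5 lower, and without any 1 library 28 or 29 were higher. Rpt3, an ATPase of the regulatory cap, had 315, 293 and 319 CPM at week 3 and 166, 161 and 145 CPM at week 2 (log2FC 0.97 ± 0.07), and the core subunits Prosalpha5, Prosalpha7 and Prosbeta7 rose by 0.98, 0.82 and 0.90. In each of these 4 subunits, those of smallest p in the list, all week 3 values lay above all week 2 values. That held for 29 of the 48 tested features of the list and for 29.5% of all features.

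Ribosomal protein genes rose by less but in greater number. Of 87 cytosolic ribosomal features 77 rose and 1 fell (median 0.40). The summed CPM of these transcripts was 199000, 189000 and 227000 at week 3 and 162000, 150000 and 159000 at week 2. The sum over all features also differed, with 1030000, 998000 and 1130000 at week 3 and 940000, 950000 and 965000 at week 2. Of 71 mitochondrial ribosomal protein genes 59 rose and 1 fell (median 0.34), with 38 rising when week 2 replicate C was left out. Most of these transcripts are short, and with length offsets 39 and 13 rose, with medians of 0.21 and 0.13. RpL23 had 2610, 2340 and 2790 CPM at week 3 against 1890, 1720 and 1810 CPM at week 2 (log2FC 0.51 ± 0.09, 0.27 with offsets), and mRpS25 rose by 0.61 (0.39 with offsets). mRpS30, the 1 mitochondrial member that fell, had a log2FC of -0.59 in both fits.

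**Figure D4:**
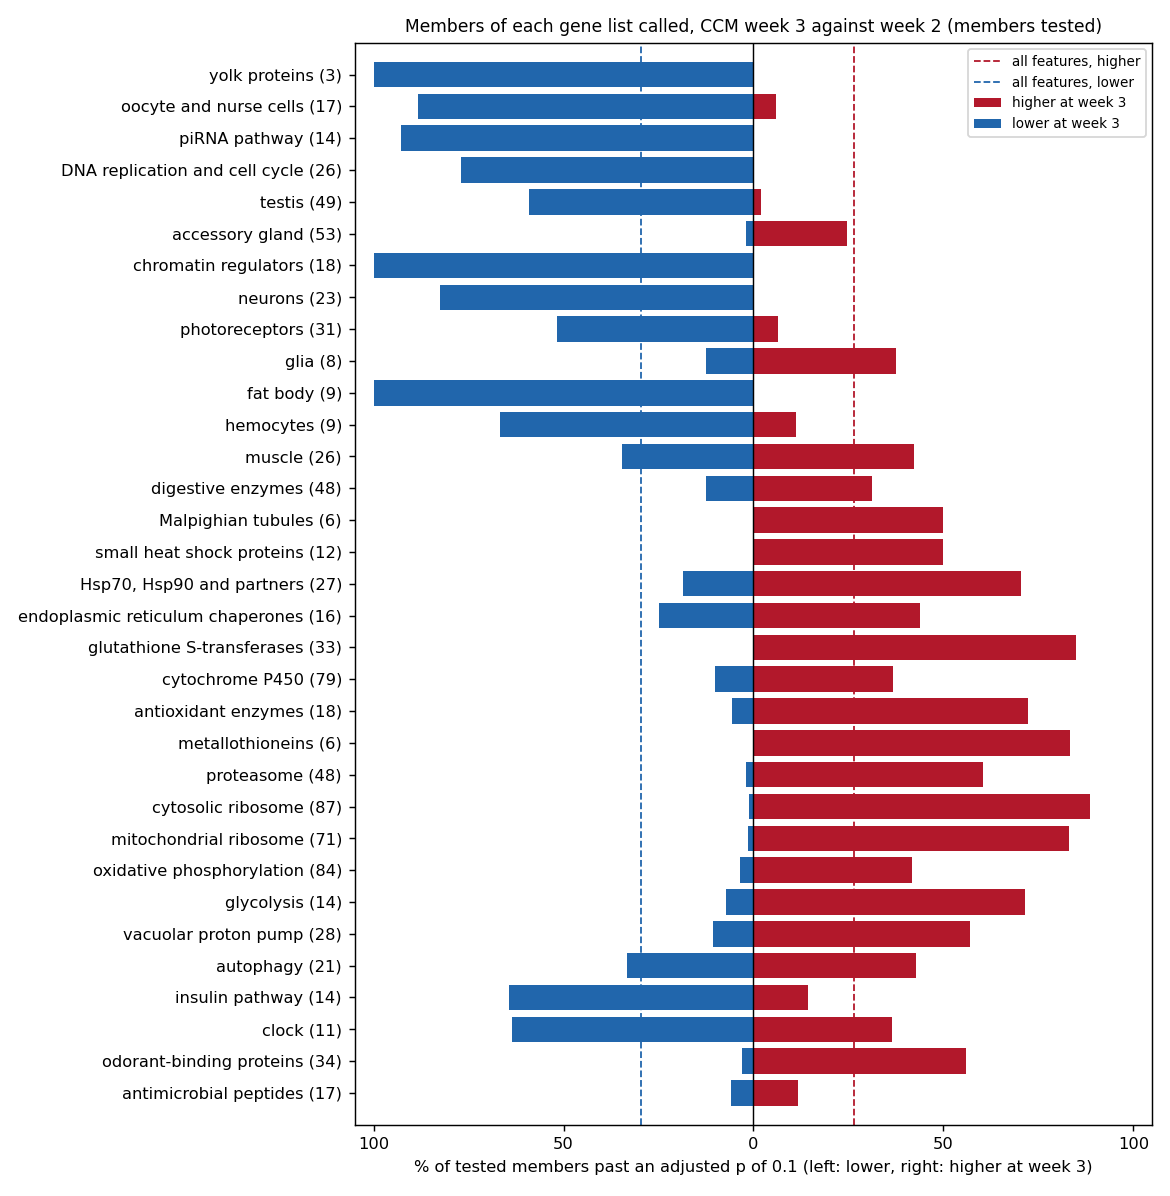
Share of the tested members of 33 gene lists that passed an adjusted p of 0.1 (horizontal axis, %), lower at week 3 to the left in blue and higher at week 3 to the right in red, with the number tested beside each name. The dashed lines mark the shares over all features, 29.6% lower and 26.4% higher: germline, chromatin and fat body lists reach far past the left line, and glutathione S-transferases, ribosome, metallothioneins and proteasome past the right one.

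Genes of energy metabolism showed smaller changes. Of 84 tested oxidative phosphorylation genes 35 rose and 3 fell (median 0.19), but 8 rose and 6 fell with length offsets (median 0.00), and 17 rose without week 2 replicate C and 18 without week 2 replicate B. Of 14 glycolytic genes 10 rose and 1 fell, and 12 rose and 0 fell with offsets, by edgeR. Tpi (triose phosphate isomerase) had 836, 819 and 975 CPM at week 3 against 639, 564 and 545 CPM at week 2 (log2FC 0.59 ± 0.11), and Eno (enolase) rose by 0.41. Hex-A, the main hexokinase, fell by 0.52 and had a log2FC of -0.00 with offsets. In the TCA cycle 2 of 12 rose and 4 fell (1 fell without week 3 replicate A). The 4 (33.3%) were close to the share of all features that fell, 29.6%. Among them was Idh3g, a subunit of isocitrate dehydrogenase, at a log2FC of -0.51 (-0.45 with offsets). The vacuolar proton pump, which acidifies lysosomes and energizes the Malpighian tubules, had 16 of 28 features higher and 3 lower (median 0.35; 1 lower without week 3 replicate C, week 2 replicate B or week 2 replicate C), led by VhaM9.7-b with 258, 244 and 275 CPM at week 3 and 158, 151 and 155 CPM at week 2 (log2FC 0.74 ± 0.05).

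Muscle genes were divided in direction. Of 26 tested, 11 rose (42.3%) and 9 fell (34.6%), beside 26.4% and 29.6% of all features, so the falls were close to the general share. With length offsets 15 rose and 2 fell. Act88F, the actin of the indirect flight muscle, had 759, 575 and 698 CPM at week 3 and 185, 270 and 170 CPM at week 2 (log2FC 1.70 ± 0.24), and Act57B, another muscle actin, had 1440, 1640 and 1390 CPM at week 3 against 724, 660 and 611 CPM at week 2 (log2FC 1.16 ± 0.10). The actin genes are close copies, so reads could be split between them. fln (flightin), a short gene for a thick filament protein of the same flight muscle, went the other way, with 17.2, 16.5 and 11.3 CPM at week 3 against 38.3, 42.6 and 36.4 CPM at week 2 (log2FC -1.38 ± 0.20, -1.54 with offsets). Strn-Mlck, a very long muscle gene of the titin and myosin light chain kinase kind, fell by 1.33 but had a log2FC of 0.63 with offsets.

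In the insulin and TOR pathway, which couples nutrition to growth and lifespan, 9 of 14 tested genes fell and 2 rose (7 and 3 with length offsets). chico, the insulin receptor substrate, had 7.66, 5.51 and 7.72 CPM at week 3 against 17.1, 34.5 and 30.7 CPM at week 2 (log2FC -1.98 ± 0.34), and mTor, the kinase of the TOR complexes, fell by 1.61 (0.45 with offsets). Tsc1, an inhibitor of TOR signaling, had 17.6 to 18.9 CPM at week 3 and 39.5 to 47.6 CPM at week 2 (log2FC -1.29 ± 0.09), and ImpL2, a secreted protein that binds insulin-like peptides, fell by 0.80. Thor (4E-BP), a translational repressor that is active when insulin and TOR signaling are low, had 603, 593 and 662 CPM at week 3 against 429, 434 and 440 CPM at week 2 (log2FC 0.51 ± 0.05).

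The circadian clock was of interest because these flies lived on a 28 h cycle. In the fly clock, CLK and CYC activate per and tim, whose products return to the nucleus and repress them, and vri and Pdp1 form a further loop that controls Clk. All 11 tested clock genes passed the threshold, 4 higher and 7 lower, and with length offsets 6 were higher and 2 lower. Clk (chr3L:7763233-7775603) had 1.57, 1.82 and 1.79 CPM at week 3 and 6.88, 11.2 and 17.9 CPM at week 2 (log2FC -2.79 ± 0.38, -2.16 with offsets). per (chrX:2685580-2692780) moved the other way, with 61.3 to 66.9 CPM at week 3 and 36.5 to 41.8 CPM at week 2 (log2FC 0.71 ± 0.07, 1.32 with offsets), and so did vri, by 0.51, and the photoreceptor cry, by 0.39. tim fell by 0.86 without offsets and had a log2FC of 0.20 with them. In control flies 2 of the 11 clock genes rose and 1 fell over the same week. In edgeR's test of the interaction of schedule and week, 3 of the 11 had an unadjusted p under 0.05, and the smallest adjusted p was 0.91. A part of the 28 h cycle in these changes was thus not shown. All samples were taken within 1 window of the light cycle, so a change in level and a change in phase cannot be told apart.

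Immune genes varied widely between libraries of the same week. The summed CPM of 22 antimicrobial peptide features was 205, 266 and 6550 at week 3 and 1670, 356 and 122 at week 2. AttC (attacin) had 14.4, 10.2 and 1670 CPM at week 3 against 342, 40.7 and 9.52 CPM at week 2, and DptA (diptericin) 10.8, 44.8 and 976 CPM at week 3 against 309, 100 and 5.96 CPM at week 2, so that 1 library in each week carried most of the signal. Neither passed (adjusted p = 0.38 and 0.52), and without week 3 replicate C their log2FC were -3.40 and -2.29. Of 17 tested antimicrobial peptide features 2 rose and 1 fell. CecA1, a cecropin, rose by 1.36 but lost its call without week 3 replicate C, week 2 replicate B or week 2 replicate C. Drsl5, a drosomycin-like peptide, rose by 0.78, with 84.5, 82.6 and 72.9 CPM at week 3 against 52.7, 39.5 and 47.4 CPM at week 2. PGRP-LF, a brake on the IMD pathway, rose by 0.92, among 4 peptidoglycan recognition proteins that were higher of 13 tested (8 higher at most with a library left out). The 4 (30.8%) were close to the share of all features that rose, 26.4%.

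In the gut, digestive enzymes were mixed, 15 higher and 6 lower of 48 (7 and 9 with length offsets). The 15 (31.2%) were close to the share of all features that rose, 26.4%, and the 6 (12.5%) were below the share that fell, 29.6%. The 15 became 7 when week 3 replicate C, week 2 replicate B or week 2 replicate C was left out. Mal-B2, a maltase, rose by 0.80, while Jon25Biii, a serine protease of the Jonah family, had 48.3, 55.3 and 66.9 CPM at week 3 and 163, 92.3 and 104 CPM at week 2 (log2FC -1.08 ± 0.28). Its neighbour Jon25Bii was among the largest rises of the comparison, with 5.85, 14.5 and 38.2 CPM at week 3 and 7.16, 2.49 and 4.35 CPM at week 2 (log2FC 2.07 ± 0.85), as was Jon25Bi (log2FC 1.88 ± 0.94). In both the groups overlapped and week 3 replicate C was the highest library, and Jon25Bii lost its call without week 3 replicate C, week 2 replicate B or week 2 replicate C and with length offsets.

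Odorant-binding proteins, small secreted proteins of the antenna and other sense organs, rose in 19 of 34 tested and fell in 1 (median 0.50), and in 14 with length offsets. Obp83b had 17.3, 23.4 and 17.4 CPM at week 3 against 7.48, 4.77 and 5.82 CPM at week 2 (log2FC 1.69 ± 0.22), and its neighbour Obp83a rose by 1.59. Orco, the co-receptor of most odorant receptors, rose by 1.60. Most features of the olfactory receptor list were too low to test, 50 of 57. Of the 7 tested, Orco among them, 2 rose (28.6%, close to the 26.4% of all features) and 1 fell, with a median of -0.01.

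Of the genes that the study singled out for the RNA at week 2, CG3739 had 112 to 124 CPM at week 3 against 47.5 to 86.2 CPM at week 2 (log2FC 0.84 ± 0.25), and CG18609 and b6 rose by 0.61 and 1.07. Acox57D-d, a peroxisomal acyl-CoA oxidase, fell by 0.49, and CG4830 did not pass (log2FC 0.31, adjusted p = 0.54). The study had called all of these genes lower in CCM than in control flies at week 2. That choice used the same CCM week 2 libraries, so it favours a rise to week 3 here. The gene of smallest p that rose was CG2656, with 270, 260 and 279 CPM at week 3 and 80.6, 90.7 and 86.6 CPM at week 2 (log2FC 1.65 ± 0.06).

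Aging over the same week in control flies was set beside aging in CCM flies, and the comparisons share no samples. In the study's lifespan experiment, a larger share of CCM flies than of control flies died during that week. The later pools were drawn from surviving flies, and the part of selective survival in the changes was not tested. In control flies 3821 of 12200 features (31.3%) passed, 1706 higher and 2115 lower. Leaving out replicate B of the control flies at week 2 raised this count to 4953, and leaving out any other control library lowered it to between 1315 and 2528. Of 12158 features tested in both, 3429 passed in both, which was 49.9% of the calls in CCM flies and 90.4% of those in control flies, and 3428 of them moved in the same direction, 1446 up and 1982 down. Of the 3444 features called in CCM flies alone, 3272 had the same sign in control flies.

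The difference itself, the interaction of schedule and week fitted on all 12 samples, passed for 0 of 12530 features (0.0%) by edgeR, with 570 at an unadjusted p under 0.05 and a smallest adjusted p of 0.91, and for 1 feature by DESeq2. With 1 library left out it also passed for 0 features, while the number at an unadjusted p under 0.05 ranged from 248, when CCM week 2 replicate C or control week 3 replicate A was dropped, up to 1338, when control week 2 replicate C was. It was 354 without CCM week 3 replicate B and 1057 without CCM week 2 replicate A. The feature called by DESeq2 was dpy (dumpy, chr2L:4477462-4614300), a giant extracellular protein that anchors epidermis and muscle to cuticle. It had 3.19, 2.87 and 2.68 CPM at week 3 against 11.3, 16.1 and 18.9 CPM at week 2 in CCM flies, a log2FC of -2.40 ± 0.22 where control flies had -0.65 (edgeR's unadjusted p = 0.00011). With 71820 exonic bases it was the longest gene tested that has a length, and with length offsets its log2FC in CCM flies was -0.00. The next features by p were Alr, a sulfhydryl oxidase of mitochondria, with log2FC of 1.07 in CCM flies and 0.42 in control flies, and CheB38c, with 1.72 and -0.01.

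Of the lists, the proteasome held the largest share of members with an unadjusted interaction p under 0.05 among lists of 10 or more, 19 of 49 (38.8%, beside 4.5% of all features), all 19 with the higher log2FC in CCM flies. Rpt3 rose by 0.97 in CCM flies and had a log2FC of 0.63 in control flies, and the median over the list was 0.51 in CCM flies and 0.25 in control flies. These 19 were counted with all 12 samples in the fit, and none passed after adjustment over all features. The members were measured in the same pools and may move together, so the 19 are not independent of each other. Their count was not repeated with a library left out. Likewise Hsp70Aa/Hsp70Ab had a log2FC of 3.64 in CCM flies and 1.65 in control flies, and apolpp -2.77 and -1.12, with unadjusted interaction p of 0.011 and 0.017 and adjusted p of 0.91.

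**Figure D5:**
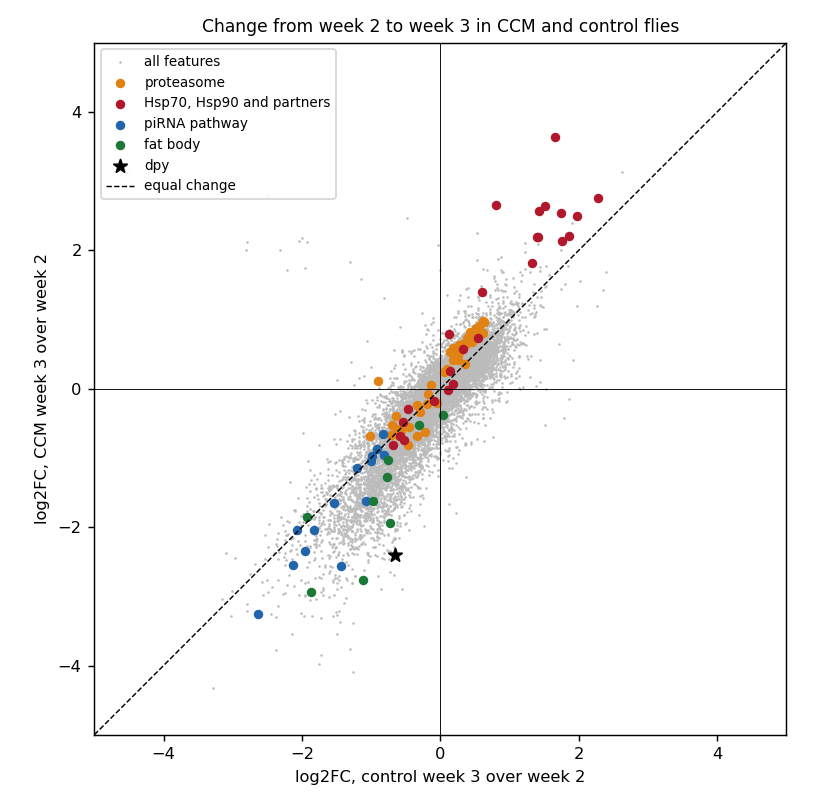
Log2FC of week 3 over week 2 in CCM flies (vertical axis) against that in control flies (horizontal axis), each grey point a feature tested in both, with the dashed line where the changes are equal. The proteasome list (orange) has a median of 0.51 in CCM flies and 0.25 in control flies, with Rpt3 at 0.97 and 0.63. The Hsp70 copies lie furthest up among the Hsp70 and Hsp90 list (red). The piRNA pathway (blue) lies at negative values on both axes. In the fat body list (green) apolpp lies at -2.77 and -1.12, and dpy (star) lies at -2.40 and -0.65.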

How the data were processed

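RNA of whole CCM flies at week 3 and week 2 was compared (3 samples each), with the 6 control samples as a reference. The authors aligned reads to dm6 with STAR and counted them with MMquant against an annotation without non-coding genes. MMquant merges genes that share reads. The values they deposited are raw counts for 14413 features, of which 1173 are merged, without normalization. Whether counting used strand is not given in the sources used here, so reads of overlapping and antisense genes may be mixed. Gene symbols came from a table of identifiers, with 52 taken from the study's supplementary lists, and positions and exonic lengths from the Ensembl annotation of the same build (13025 of 13240 single genes, 98.4%).

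In R 4.3.3, edgeR 4.0.16 was run on the 6 CCM samples with filterByExpr, TMM and the quasi-likelihood test, with Benjamini-Hochberg adjustment over all features and an adjusted p under 0.1, the study's threshold. The SE of a log2FC came from the replicates' log2(CPM + 0.5). Control aging was fitted likewise and the interaction on all 12 samples. Alternatives were DESeq2 1.42.0, RLE normalization, no filter, all 12 samples, a replicate block, length offsets (lowess, span 0.3, with genes lacking a length given a common value), single genes only, an adjusted p under 0.05, and each replicate left out. When 200 features of the CCM comparison were simulated with a log2FC of 1 (12264 features tested), edgeR recovered 141, with 21 false among 162 calls. DESeq2 recovered 159 (12108 features tested), with 66 false among 225 calls. The simulation changed far fewer features than were called in the data, so these shares of false calls do not carry over to it. Tables and figures were made in Python 3.11.15 with pandas 2.3.3 and matplotlib 3.10.9.

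The members and the 49 gene lists were chosen with earlier results of these data known. A list is described by its counts and median, with no set test. Names in 9 lists were corrected after the files were read (older symbols replaced, 4 genes taken up by a pattern removed, 1 ambiguous name dropped). Named genes were, per direction, the 15 of smallest p with groups that do not overlap and the 10 of largest change at a mean of 5 CPM or more, per list up to 4 of smallest p and 2 of highest CPM, for the interaction the 10 of smallest p, and the study's week 2 genes. Members outside this rule (cuff, moody, Hsp26, Hsp27, Rpn5 and the paralogs and Y-linked genes of the closing section) were chosen after their values were seen.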

Additional observations from a re-analysis of the deposited data

How the results depend on the processing

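The count of features past the threshold in CCM aging stayed within 1.5 times of 6919 under every alternative run, from 4709 (2520 higher, 2189 lower) with length offsets and the replicate block to 7113 (3457 higher, 3656 lower) with DESeq2, and from 5413 to 6788 with 1 replicate left out. Control aging gave 2047 at an adjusted p under 0.05 and 1315 to 4953 with 1 replicate left out, beside 3821. The interaction gave 0 features under each alternative run with edgeR, 0 with each replicate left out, and 1 with DESeq2. Length offsets turned the sign of osa (0.50), Strn-Mlck (0.63), cnc (0.12) and tim (0.20), and with the block as well these were 0.51, 0.68, 0.12 and 0.19 and dpy was 0.01. AttC and DptA, neither of them called, ranged from -3.40 and -2.29 (without CCM week 3 replicate C) to 4.49 and 2.70 (without CCM week 2 replicate A) when a library was left out, and turned to -1.37 and -0.81 with the replicate block and to -1.56 and -1.03 with both block and length offsets. The labels do not say that equal letters share a cohort, and same-lettered samples deviated apart (r = -0.31, -0.09 and -0.36), so the letters were not taken as pairs. With them as a block 5715 features passed (2555 higher, 3160 lower). At 3 pools a group and 20353284 or more counts a library, a level under 0.127 to 0.147 CPM (3 counts) is not detectable at this depth, and p-values rest on the spread between the pools.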

Other observations

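Subunits with a testis-specific paralog were described apart after their values had been seen, so these counts are given with no test. In the proteasome list, the 15 tested paralogs named for testis or related forms (such as Prosalpha6T and Rpt3R, at a mean of 0.82 to 5.43 CPM) had 0 higher and 0 lower by edgeR, 14 of the 15 below 0 and a median log2FC of -0.56, while of the 33 other features 29 rose (median 0.65). In oxidative phosphorylation the 21 paralogs whose names end in L, or in L and a digit, had 0 higher and 2 lower, with 20 of 21 below 0 and a median of -0.37, beside 35 higher of 63 other features (median 0.25). With length offsets the medians were -0.75 against 0.51 in the proteasome list and -0.59 against 0.06 in oxidative phosphorylation. In the same libraries 29 members of the testis list fell, or 8 without week 2 replicate C. A link between the testis list and the paralogs was not tested, and the paralogs were not recounted with a library left out.

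Of the 8 tested genes on the Y chromosome, which is present in males alone and carries genes needed for sperm, 5 fell and 0 rose by edgeR, with a median log2FC of -1.02 (-1.11 with length offsets). The axonemal dynein gene kl-3 had 0.0476, 0 and 0.21 CPM at week 3 against 0.508, 1.48 and 1.22 CPM at week 2, values near the limit that 3 counts allow, and ARY, an aldehyde reductase gene, had 0.523, 0.592 and 0.525 CPM at week 3 against 1.11, 1.24 and 1.61 CPM at week 2 (log2FC -1.26 ± 0.12). Of 77 tested genes on chromosome 4, 9 rose and 50 fell, with a median of -0.71 that was -0.06 with length offsets.

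The merged feature of CG8079 and Fs (follistatin) was the only one called in opposite directions in CCM and control flies. It had 1.95, 1.23 and 2.57 CPM at week 3 against 3.55, 3.09 and 2.70 CPM at week 2 in CCM flies (log2FC -0.70, adjusted p = 0.093) and 2.93, 3.66 and 3.19 against 1.70, 1.74 and 2.31 CPM in control flies (log2FC 0.76, adjusted p = 0.068), with an adjusted interaction p of 0.91, and its call in CCM flies was lost without any 1 of 5 of the 6 libraries, with DESeq2 and RLE normalization (adjusted p = 0.11 each) and with the replicate block (adjusted p = 0.15).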
